A study of Homo sapiens with 2 samples.

Results

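The EGFR receptors and their EGF-like ligands were described here as a set of 10 genes. The set holds 3 receptors (EGFR, ERBB2 and ERBB3), 6 ligands (AREG, EREG, HBEGF, TGFA, BTC and NRG1) and ADAM17, the protease that releases several of these ligands from the cell surface. Members were found by their GENCODE release 29 symbol, joined through the Ensembl identifiers of their transcripts, and all 10 were among the 49627 genes listed in both libraries. Of the 10 members, 8 had a mean level of at least 1 FPKM, as did 11186 of all genes. FPKM counts fragments per kilobase of transcript and is scaled to the mapped fragments of a library, so levels of different genes can be compared per length.

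RNA sequencing was done on MDA-MB-231, an established human triple-negative breast cancer line, with 1 library of RBMS1 knockdown cells and 1 library of control cells. RBMS1 encodes an RNA-binding protein, and the comparison asks which transcripts differ when it is depleted. By the study's methods, lentiviral shRNA in the pLKO.1 plasmid gave stable knockdown lines under puromycin selection, and cells with the empty pLKO.1 vector were the control. Both cultures grew in L15 medium with 10% FBS without carbon dioxide, no added agent is named in the labels of either library, and total RNA was sequenced. The labels name neither the hairpin used nor a clone. Each group has 1 library, so differences could not be checked in replicates and hold for these 2 libraries alone. The files hold no read counts. As a measure of depth, the knockdown library had a median coverage of 12.4 for each FPKM and the control library one of 11.4, which is 1.09 times deeper sequencing of the knockdown cells.

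RBMS1 (ENSG00000153250) was examined before the members, since its message should be low where it was targeted. Its level was 3.76 FPKM in the knockdown library, with a within-library interval of 3.12 to 5.39, and 24.1 FPKM in the control library, with an interval of 21.7 to 27.7. The log2 ratio of knockdown over control, computed here and throughout after adding 1 FPKM to both values, was −2.40, and only 0.858% of the genes passing the minimum had a lower one. The levels of the depleted gene therefore follow the labels of the libraries. The interval is the one Cufflinks gives for uncertainty within a library, summed over the transcripts of a gene, and it says nothing about variation between cultures.

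Markers of the cell line were checked in the same way. The mesenchymal intermediate filament gene VIM stood at 496 FPKM in the knockdown library and 563 FPKM in the control library, the receptor kinase gene AXL at 251 and 229 FPKM, CD44 at 154 and 204 FPKM and LGALS1 at 668 and 634 FPKM. The hormone receptor genes ESR1 and PGR, whose absence helps define triple-negative tumours, were at 0.0996 and 0.00168 FPKM in the knockdown library and at 0.0286 and 0.00367 FPKM in the control library. The epithelial cadherin gene CDH1 was near 0 as well, at 0.0467 and 0.0952 FPKM. Of the 6 markers looked for as low, 3 passed the minimum. ERBB2, itself a member, was the highest of them, with 7.50 FPKM for knockdown cells and 7.00 FPKM for control cells, followed by EPCAM with 1.93 and 3.66 FPKM and GATA3 with 2.11 and 1.56 FPKM. Of 8 markers of leukocytes, endothelium and fibroblasts, 0 reached a mean of 1 FPKM. Their summed level was 1.57 FPKM in the knockdown library and 2.91 FPKM in the control library, the most abundant was CD14 at 0.783 and 0.968 FPKM, and 2 and 1 of them were listed at 0. Of 4 markers of luminal epithelium, the keratin genes were high in both libraries, with KRT18 at 162 and 190 FPKM, KRT8 at 160 and 122 FPKM and KRT19 at 84.4 and 69.6 FPKM, while the transcription factor gene FOXA1 was at 0.0422 and 0.266 FPKM. KRT8 and KRT18 are known to be expressed by this line.

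The EGFR family consists of receptor tyrosine kinases that pair up in the membrane when a ligand binds and then signal through RAS, ERK and AKT. EGFR has several ligands of its own, ERBB2 binds no known ligand and acts as a partner for the others, and ERBB3 binds neuregulins but has very weak kinase activity. The ligands are made as membrane-anchored precursors that proteases such as ADAM17 cleave, and triple-negative breast cancer lines often carry abundant EGFR and little ERBB2.

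No member differed by 2-fold between the libraries: 0 of the 8 members passing the minimum had a log2 ratio of at least 1, against 2.96% of all genes passing it, and 0 had one of at most −1, against 2.80%. Their log2 ratios ran from −0.33 for EGFR to 0.24 for HBEGF, with a median of −0.06 beside 0.02 over all genes. With reference transcripts only the median of the members was −0.22 beside 0.02. Of all genes, 70.5% had a smaller log2 ratio in size than EGFR, the member that differed most with assembled transcripts counted. With reference transcripts only TGFA differed most, at −0.69 beside −0.63 for EGFR. The within-library intervals of 5 of the 8 members did not overlap between the libraries, against 24.7% of all genes. AREG and HBEGF were the 2 with the higher level in the knockdown library, a position held by 13.3% of all genes, and EGFR, EREG and ADAM17 were the 3 with the lower one, held by 11.5%. All 8 members had a mean of at least 5 FPKM, and among the 7248 genes at that level the intervals of 28.3% were apart. In bulk RNA, fewer cells that express a gene and less RNA per cell cannot be told apart.

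**Figure D1:**
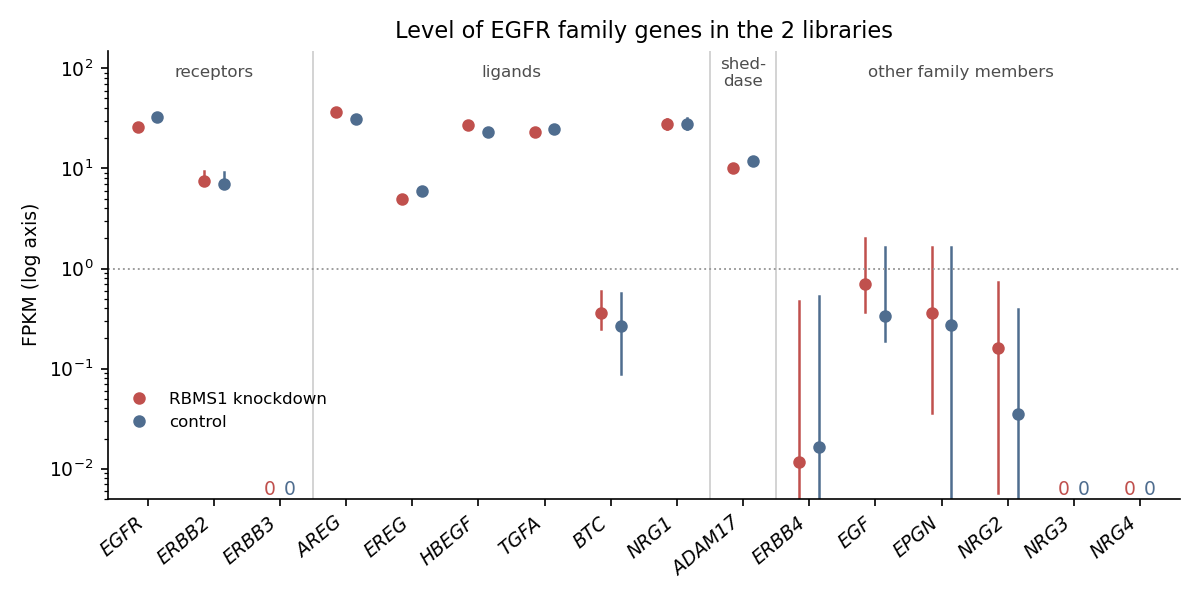
Level of the 10 members and of 6 further family genes in the RBMS1 knockdown and control libraries, in FPKM on a log axis, with within-library intervals as bars, which run to the axis where the lower bound is 0, genes listed at 0 marked at the bottom and 1 FPKM dotted. EGFR, AREG, HBEGF, TGFA and NRG1 lie between 23.0 and 36.3 FPKM, and the 6 further genes lie under 1 FPKM.

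EGFR (ENSG00000146648), the receptor that gives the family its name, lies on chromosome 7 of GRCh38 at chr7:55019021-55211628, on the plus strand. Its level was 26.1 FPKM in the knockdown library (interval 24.7 to 28.2) and 33.0 FPKM in the control library (31.5 to 35.2). These intervals do not overlap, and the log2 ratio was −0.33, with −0.50 to −0.16 as the range that opposite interval bounds give. EGFR was among the more abundant messages of these cells, above 81.9% of the genes passing the minimum in the knockdown library and above 86.2% in the control library. In the control library the whole level came from 1 transcript, ENST00000275493, with 28 exons and 9821 bases. In the knockdown library this transcript held 21.0 FPKM, and a transcript assembled from the reads held the other 5.05 FPKM, or 19.3% of the gene. The assembled transcript shares all 27 introns with ENST00000275493 and differs only at its ends, with 648 bases added at the 5′ end and 12 at the 3′ end. Without it the log2 ratio of EGFR would be −0.63, so the size of the difference depends on whether that transcript is counted.

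RefSeq (GRCh38.p14) gives EGFR 2 promoter windows, each from 250 bases before to 50 bases after an annotated start. The assembled EGFR transcript covers the upstream one, which is why its sequence is shown. It lies at chr7:55018767-55019066 on the plus strand, and all 300 bases of the window are inside the first exon of the assembled transcript. The window ends 35 bases before the start of ENST00000275493. Capitals mark the letters CCGCCC, which are the GC box GGGCGG read on the other strand, and both strands were searched.
EGFR promoter window: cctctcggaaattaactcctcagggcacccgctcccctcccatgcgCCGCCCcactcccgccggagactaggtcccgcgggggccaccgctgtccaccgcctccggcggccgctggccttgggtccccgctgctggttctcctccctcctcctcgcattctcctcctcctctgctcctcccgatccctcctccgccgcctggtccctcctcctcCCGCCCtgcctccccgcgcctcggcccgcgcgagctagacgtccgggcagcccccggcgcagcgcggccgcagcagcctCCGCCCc
This window holds 3 GC boxes and 0 matches to the TATA box letters TATAAA. The other EGFR window, at chr7:55109589-55109888 on the plus strand, holds 0 GC boxes and 2 matches to TATAAA. Over 35116 RefSeq promoters of the same length, 45.0% hold at least 1 GC box and 11.5% hold TATAAA on either strand. A match describes the letters only, and 8 of the 10 members had an entry in the promoter table, while ERBB3 and NRG1 had none.

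ERBB2 (ENSG00000141736), the receptor without a ligand of its own, stood well below EGFR, at 7.50 FPKM in the knockdown library (interval 6.99 to 9.52) and 7.00 FPKM in the control library (6.51 to 9.14). The intervals overlap, and the log2 ratio was 0.09. Of its 22 reference transcripts, only ENST00000269571 was above 0 in either library. Per unit of EGFR message the knockdown library held 0.287 of ERBB2 and the control library 0.212. ERBB2 was above 47.4% and 45.4% of the genes passing the minimum, near the middle of the expressed genes.

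ERBB3 (ENSG00000065361), the neuregulin receptor with a weak kinase, was listed at 0 for all 21 of its reference transcripts in both libraries. The upper interval bounds of these transcripts add up to 2.71 FPKM in the knockdown library and 2.05 FPKM in the control library, so a low level was not detectable at this depth. A gene can also be listed at 0 when its estimate fails, and 5446 of 19704 protein-coding genes (27.6%) were listed at 0 in both libraries. ERBB4, the other neuregulin receptor, was at 0.0117 and 0.0165 FPKM. The value of 0 for ERBB3 is therefore not read as an absent message.

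AREG (ENSG00000109321), which encodes amphiregulin, a ligand of EGFR alone, had the highest level of the ligands in both libraries, though in the control library its interval overlaps that of NRG1. It reached 36.3 FPKM in the knockdown library (interval 33.9 to 38.8) and 31.1 FPKM in the control library (28.9 to 33.4), each from the single transcript ENST00000395748. The intervals are apart by a narrow margin, and the log2 ratio was 0.22, with a range of 0.02 to 0.41. Scaling the libraries to an equal median ratio or to TPM brings the intervals of AREG into contact, while its log2 ratio under 3 other scalings stayed between 0.19 and 0.23. Assembled fragments of no gene that lie within the span of AREG but share no base with its exons had 25.1 FPKM in the knockdown library and none were listed for control cells, and they are not part of its level. The same quantity was 201 and 196 FPKM for EGFR, 17.5 and 16.1 FPKM for EREG and 22.7 and 17.8 FPKM for TGFA in the knockdown and control libraries.

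HBEGF (ENSG00000113070) encodes heparin-binding EGF-like growth factor, a ligand of EGFR and ERBB4. Its single transcript above 0, ENST00000230990, stood at 27.4 FPKM in the knockdown library (interval 25.9 to 29.2) and 23.1 FPKM in the control library (21.6 to 24.7). The log2 ratio of 0.24 was the highest among the members passing the minimum, and 77.9% of all genes passing it had a lower one. HBEGF kept its intervals apart under each of the 3 other scalings.

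EREG (ENSG00000124882) encodes epiregulin, which also binds EGFR and ERBB4, and it was the lowest of the ligands that passed the minimum. Its level was 4.92 FPKM in the knockdown library (interval 4.54 to 5.48) and 5.93 FPKM in the control library (5.49 to 6.57), all from ENST00000244869. The upper bound in the knockdown library lies just under the lower bound in the control library, and the range of the log2 ratio of −0.23 accordingly ends at 0.00. With both libraries scaled to an equal upper quartile the intervals of EREG overlap.

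TGFA (ENSG00000163235) encodes transforming growth factor alpha, a ligand of EGFR. The gene stood at 23.0 FPKM in the knockdown library (interval 21.4 to 25.5) and 24.9 FPKM in the control library (23.6 to 27.3), with overlapping intervals and a log2 ratio of −0.11. The composition of this level was listed differently in the 2 libraries. In the control library ENST00000295400 held all of it. In the knockdown library the same transcript held 15.0 FPKM (65.4%), and an assembled transcript of 6 exons and 4240 bases held 7.95 FPKM (34.6%). With reference transcripts only, the log2 ratio of TGFA would be −0.69.

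The forms of TGFA differ at 1 splice junction, where the intron removed is 49122 bases long in ENST00000295400 and 49125 bases long in the assembled transcript. The longer intron is annotated too, in ENST00000418333, and with it the coding sequence lacks 3 bases. Both junctions are shown from 30 bases before the intron onward, as spliced sequence of GENCODE release 29 on GRCh38, minus strand, joining chr2:70514859-70514888 to chr2:70465704-70465736 in the longer form and to chr2:70465704-70465733 in the shorter form. Capitals mark the bases that only the longer form keeps.
TGFA longer form: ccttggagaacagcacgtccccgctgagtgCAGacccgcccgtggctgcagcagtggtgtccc
TGFA shorter form: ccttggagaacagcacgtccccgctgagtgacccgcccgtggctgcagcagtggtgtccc
The junction of the longer form carried 15.0 FPKM in the knockdown library and 24.9 FPKM in the control library. The junction of the shorter form carried 7.95 FPKM in the knockdown library and was listed in no transcript above 0 in the control library. Transcripts are assembled in each library on its own, so a form missing from 1 list is not shown to be missing from those cells.

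BTC (ENSG00000174808), which encodes betacellulin, a ligand of EGFR and ERBB4, was below the minimum, with 0.363 FPKM in the knockdown library and 0.264 FPKM in the control library. Its intervals of 0.247 to 0.601 and 0.0888 to 0.571 overlap. Adding an assembled transcript that overlaps its exons turns the log2 ratio from 0.11 to −0.10, so no direction can be given.

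Together the 5 ligands of EGFR among the members summed to 92.0 FPKM in the knockdown library (interval 86.0 to 99.7) and 85.2 FPKM in the control library (79.7 to 92.6), a log2 ratio of 0.11. Among those passing the minimum, AREG and HBEGF had higher levels in the knockdown library, and TGFA and EREG lower ones. The comparison of the sums depends on whether the assembled TGFA transcript of the knockdown library is counted. With reference transcripts only the sums were 84.0 and 85.1 FPKM, a log2 ratio of −0.02. AREG made up 39.5% of the knockdown sum and 36.5% of the control sum. HBEGF followed with 29.8% and 27.0%, and TGFA with 25.0% and 29.2%. The supply of ligand message thus came mostly from these 3 genes in both libraries, with 5.35% and 6.96% from EREG and under 1% from BTC. Per unit of EGFR message the knockdown library held 1.39 of AREG and the control library 0.941, with 1.05 and 0.698 for HBEGF. These ratios differ more between the libraries than the ligand levels do, since the EGFR level is lower where the levels of AREG and HBEGF are higher.

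AREG, EREG and BTC share a stretch of chromosome 4 with EPGN, a further ligand gene of the family. From the start of EPGN to the end of BTC the stretch spans 486 kb and holds 6 annotated genes, of which 2 are antisense RNAs. EREG begins 49.8 kb after EPGN, and AREG lies beyond it on the same strand. Levels in this neighbourhood differed widely, with EPGN at 0.359 and 0.274 FPKM beside AREG at 36.3 and 31.1 FPKM in the knockdown and control libraries. The neighbours EREG and AREG had log2 ratios of opposite sign, −0.23 and 0.22, under each of the alternatives tried.

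The 3′-UTRs of the ligand messages were read for AU-rich letters, since RBMS1 is an RNA-binding protein and short-lived growth factor messages often carry them. The pentamer ATTTA was counted on the transcript strand of the leading reference transcript, and 72.2% of 9204 genes passing the minimum with a 3′-UTR of at least 100 bases hold it, at a median of 1.77 per kb. AREG packs 4 copies into 269 bases, or 14.9 per kb, a higher density than in 99.8% of these genes. EREG holds 20 copies in 3943 bases, or 5.07 per kb, above 89.8%. HBEGF has 5 copies at 3.43 per kb and TGFA 13 copies at 3.63 per kb, above 76.2% and 78.6%. BTC, which is below the minimum, has 12 copies at 6.26 per kb, and ADAM17 has 7 copies at 4.14 per kb, above 83.3%. EGFR has a 3′-UTR of 6011 bases, longer than in 97.0% of these genes, with 9 copies at 1.50 per kb, which is under the median. Windows of 30 bases with several copies show how they are spaced, with ATTTA in capitals, from GENCODE release 29 on GRCh38. They lie at chr4:74454930-74454959 on the plus strand for AREG, chr4:74387365-74387394 on the plus strand for EREG, chr5:140333666-140333695 on the minus strand for HBEGF and chr7:55210238-55210267 on the plus strand for EGFR.
AREG 3′-UTR window: tcaagttgtaaataATTTATTTAatATTTA
EREG 3′-UTR window: aatccATTTAtttcATTTAcaaaagATTTA
HBEGF 3′-UTR window: tATTTAttttattctatgtatgttaATTTA
EGFR 3′-UTR window: atttttatATTTAcaattgatatgcATTTA
In AREG a pair of copies overlap by their last and first letter. Of the 8 members passing the minimum, 6 hold ATTTA and 5 do so above the median density. ERBB2 and the leading NRG1 reference transcript hold 0 copies. For NRG1 that transcript, ENST00000518206, was above 0 in the control library only, so the count does not describe the 3′ ends listed in the knockdown library. The pentamer ATATA, found in 59.5% of the same 9204 genes, is in 7 of the 8 members. EREG has 20 copies at 5.07 per kb, above 92.4% of these genes, and AREG 1 copy at 3.72 per kb, above 85.8%. EGFR has 7 copies in its long 3′-UTR, at 1.16 per kb, above 55.0%. The letters were searched without regard to binding, and the members with dense ATTTA had log2 ratios of both signs, such as 0.22 for AREG and −0.23 for EREG.

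NRG1 (ENSG00000157168) encodes the neuregulin that binds ERBB3 and ERBB4. Summed over its transcripts it stood at 27.6 FPKM in the knockdown library (interval 25.0 to 31.3) and 27.7 FPKM in the control library (24.7 to 31.9), and its log2 ratio of −0.01 becomes 0.01 with an equal upper quartile and −0.31 with reference transcripts only. With the dominant transcript only, NRG1 counts as higher in the knockdown library, since that transcript is listed there alone and no ratio can be given. In the knockdown library NRG1 lay beside HBEGF in level and in the control library above it, where its lower bound and the upper bound of HBEGF are both 24.7 FPKM, while the receptors it binds were listed at 0 or near 0.

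No transcript assigned to NRG1 was above 0 in both libraries, although the sums over these transcripts were alike. The single-exon reference transcript ENST00000607314, at the 3′ end of the gene, had 4.21 FPKM in the knockdown library and 1.78 FPKM in the control library, but it is not in GENCODE release 29 and was not joined to a gene. The knockdown library listed an assembled transcript of 8 exons at 17.4 FPKM (63.2% of the gene), ENST00000287842 at 5.01 FPKM and ENST00000356819 at 4.98 FPKM. The control library listed an assembled transcript of 7 exons at 13.4 FPKM (48.4%), ENST00000518206 with 6 exons at 12.8 FPKM (46.3%) and a further assembled transcript at 1.46 FPKM. Counting by intron shows where these lists overlap. The 3 introns in the middle of the gene carried 27.4 FPKM in the knockdown library and 26.3 FPKM in the control library. A further 2 introns that flank a short exon were also listed in both libraries, at 17.4 and 14.3 FPKM each. The 2 introns before the middle ones carried 27.4 and 13.4 FPKM. An intron that skips the short exon carried 10.0 FPKM in the knockdown library and lay in no transcript above 0 for control cells. The 4 last introns carried 10.0 FPKM in the knockdown library and lay in no transcript above 0 in the control library. An unannotated intron that ends the 7-exon transcript carried 13.4 FPKM in the control library and was not listed in the knockdown library. Assembled single-exon fragments assigned to no gene were unequal as well, 9 for knockdown cells with 60.6 FPKM in all and 3 for control cells with 3.45 FPKM. The sums of NRG1 leave all of these out. Only 3 of them, all in the knockdown library, share bases with the exons of the NRG1 transcripts above 0, and they cover 4275 of those 11785 bases (36.3%). Adding these 3 would give 32.9 and 27.7 FPKM, a log2 ratio of 0.24. The fragments are separate stretches, each with its own FPKM per length, so a sum of them can overstate a level. How far the equal sums depend on leaving the fragments out was not tested. Their part in the difference between the lists was not tested. The exon structures that the files give for ENST00000287842 and ENST00000356819 are exchanged in GENCODE release 29, so these 2 names hold only for the files.

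ADAM17 (ENSG00000151694), the membrane protease that sheds AREG, HBEGF, TGFA and other ligands, stood at 10.0 FPKM in the knockdown library (interval 9.38 to 10.8) and 11.8 FPKM in the control library (11.1 to 12.7). The intervals are apart, the log2 ratio was −0.22 with a range of −0.40 to −0.04, and 20.9% of genes passing the minimum had a lower one. The level came from ENST00000310823 alone, of 4 reference transcripts. Of its exon bases, 326 (7.50%) are shared with IAH1 on the opposite strand, which stood at 12.6 and 12.5 FPKM, and how reads there were divided was not tested.

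In the order of levels, AREG led in the knockdown library, with intervals apart from those of the next gene. NRG1, HBEGF, EGFR and TGFA followed between 27.6 and 23.0 FPKM, each overlapping its neighbour in the order. ADAM17 and ERBB2 came next and overlap each other, and EREG and BTC closed the order with intervals apart. In the control library EGFR came first at 33.0 FPKM, and EGFR, AREG, NRG1, TGFA and HBEGF each overlap their neighbour. ADAM17 stood alone below them, ERBB2 and EREG overlap, and BTC was again the lowest member above 0. The first place thus differs between the orders, with AREG above EGFR in the knockdown library and not separable from it in the control library.

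**Figure D2:**
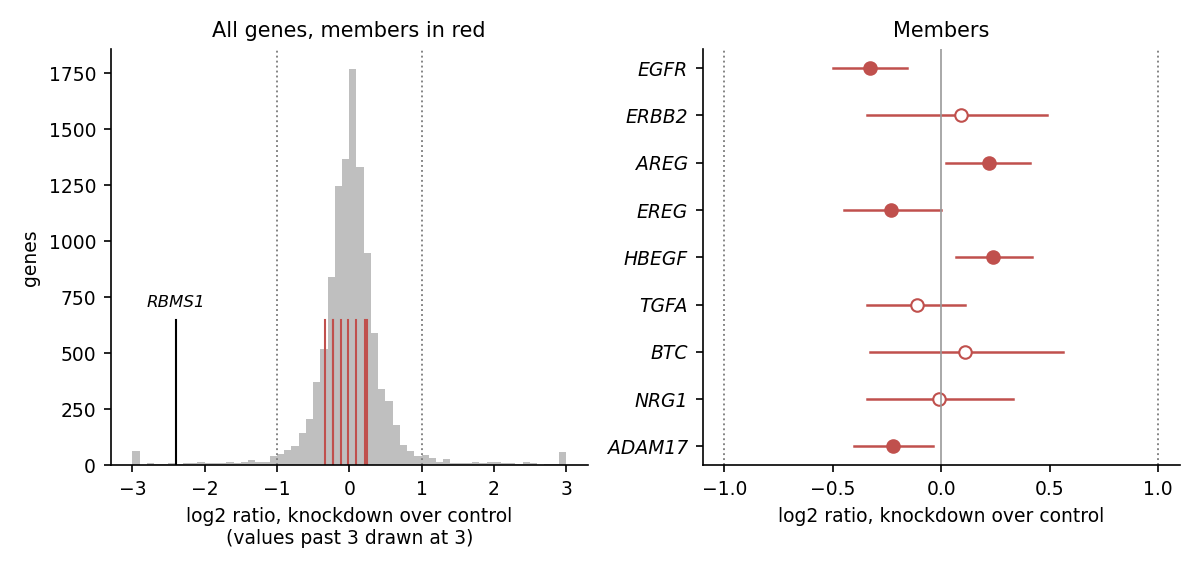
Left, number of genes passing the minimum by log2 ratio of knockdown over control on FPKM + 1, with the members as red lines and RBMS1 as a black line at −2.40; right, each member above 0 with the range from opposite interval bounds, filled where the within-library intervals are apart, and 2-fold as dotted lines. The members passing the minimum lie between −0.33 and 0.24, the sign of BTC turns with overlapping assembled transcripts added, and that of NRG1 with an equal upper quartile or overlapping fragments added.

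Of the 6 family genes outside the set, 0 reached a mean of 1 FPKM. EGF, the founding ligand of EGFR, had 0.703 FPKM in the knockdown library and 0.338 FPKM in the control library, with overlapping intervals. NRG2 was at 0.162 and 0.0348 FPKM, and NRG3 and NRG4 were listed at 0 in both libraries. At this minimum, the expressed family consisted of members of the set.

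The pathway around the receptors was described through 4 lists with 87 genes in all, of which 84 passed the minimum. Of these, 3 (3.57%) were at least 2-fold higher in the knockdown library and 1 (1.19%) was at least 2-fold lower, beside 2.96% and 2.80% of all genes, and their median log2 ratio was 0.04 beside 0.02. With reference transcripts only, 10 of 84 (11.9%) were higher and 3 (3.57%) lower, beside 5.31% and 4.87% of all genes, so the comparison with all genes depends on which transcripts are summed.

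Among the 10 sheddases and their partners, which act beside ADAM17, 8 passed the minimum with a median log2 ratio of 0.30. TIMP3, a secreted inhibitor of ADAM17 and of other metalloproteinases, was the 1 gene past 2-fold, at 49.1 FPKM in the knockdown library (interval 46.8 to 51.4) and 17.9 FPKM in the control library (17.0 to 18.9). Its log2 ratio of 1.40 was past 2-fold under each of the 8 alternatives tried, from 1.24 to 1.45. ADAM9, a related protease, had the lowest log2 ratio of the list, −0.53, with 41.7 and 60.6 FPKM. Of the 8 genes, 5 were higher in the knockdown library, TIMP3 among them, and 3 were lower, while the ADAM17 message was slightly lower. Whether shedding differed was not tested.

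The 30 adaptors and proximal effectors, which link the receptors to RAS, ERK and AKT, all passed the minimum, and 0 differed by 2-fold in either direction. Their median log2 ratio was 0.04. With reference transcripts only, 2 were at least 2-fold higher and 1 at least 2-fold lower, beside 5.31% and 4.87% of all genes. The kinase gene AKT1 had the lowest log2 ratio, −0.29, which is 0.21 with reference transcripts only, and PIK3R1, a regulatory subunit of PI3-kinase, the highest, 0.41, which is 0.08 with the dominant transcript only.

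Of the 27 negative regulators and traffic genes, 26 passed the minimum, with a median log2 ratio of 0.09. That median was 0.17 with reference transcripts only. The intervals of 9 were apart and higher in the knockdown library and those of 2 apart and lower, beside 13.3% and 11.5% of all genes. LRIG1, a membrane protein that promotes the degradation of EGFR family receptors, was the 1 gene past 2-fold and lower in the knockdown library, at 1.61 FPKM (interval 1.30 to 2.57) against 7.08 FPKM in the control library (6.25 to 8.68). Its log2 ratio was −1.63, and it was −0.79 with reference transcripts only and −0.87 with 5 FPKM added, both short of 2-fold. RNF41, a ubiquitin ligase known to act on ERBB3, had the highest log2 ratio, 0.62, which is 0.29 with reference transcripts only.

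The 20 ERK-induced early genes are known to be switched on by signalling below the receptors. All passed the minimum, with 7 higher, 13 lower and a median log2 ratio of −0.13 beside 0.02 over all genes. The intervals of 4 were apart and higher in the knockdown library and those of 7 apart and lower, beside 13.3% and 11.5% of all genes. DUSP6, a phosphatase of ERK, was higher in the knockdown library, at 49.1 and 23.5 FPKM, with a log2 ratio of 1.03. That ratio ran from 0.44 with overlapping assembled transcripts added to 2.52 with reference transcripts only. Of the knockdown level, ENST00000547291 held 24.5 FPKM, and 2 assembled transcripts held 12.7 and 11.9 FPKM. Both of these extend to chr12:89173095, outside the annotated gene at chr12:89347232-89353271. Without these 2 alone the levels would be 24.5 and 23.5 FPKM. That leaves out assembled transcripts of the knockdown library only, so it does not show where the difference comes from. In the control library an assembled transcript held 20.0 FPKM and ENST00000279488 held 3.46 FPKM. FOSB, a subunit of AP-1, had 3.56 FPKM in the knockdown library and was listed at 0 in the control library, so no fold is given. It still enters the count of 2 of the 20 genes at least 2-fold higher, beside 2.96% of all genes, while 0 were at least 2-fold lower, beside 2.80%. JUNB had the lowest log2 ratio, −0.72, which is −0.23 with overlapping assembled transcripts added. Early genes thus had ratios of both signs, as did the receptors and ligands.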

How the data were processed

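RNA from 1 RBMS1 knockdown and 1 control library of MDA-MB-231 cells was sequenced. The authors deposited, for each library, transcripts with their FPKM, a within-library interval and coverage, as Cufflinks writes them. The submitters' processing notes name TopHat2 2.0.9, Bowtie2 2.0.6, Cufflinks 2.1.1 and Cuffdiff 2.1.1. Neither genome build nor annotation is stated. Of the reference transcripts matched to GENCODE release 29 (GRCh38), 98.1% start at its position in each library. The authors' own comparison table, with fold changes, p-values and q-values, was not used.

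The FPKM of a gene adds up its reference transcripts and any assembled transcripts that share at least 1 annotated intron with it on the same strand. Intervals were summed likewise. Log2 ratios use FPKM + 1. Genes with a mean of at least 1 FPKM entered counts, and 2-fold means a log2 ratio of 1 or more in size. No test was possible with 1 library per group.

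Named genes are RBMS1, the members, 6 other family genes and, in each pathway list, every gene past 2-fold and those with the lowest and highest log2 ratio. Some marker genes are named as well, as is IAH1, which shares exon bases with ADAM17. For members passing the minimum, transcripts are described from 10% of a gene's FPKM, with smaller ones of NRG1 added after its values were seen. Those of DUSP6 were also added after its values were seen. Members and lists were chosen with earlier results of these data known. Alternatives covered the pseudocount, the transcripts summed, scaling and filters. Promoters came from RefSeq (GRCh38.p14). Steps were tested on simulated data and run in Python 3.11.15 with numpy 2.4.6, pandas 2.3.3 and matplotlib 3.10.9.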

Additional observations from a re-analysis of the deposited data

How the results depend on the processing

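Over the members and RBMS1, 81 values were computed under alternatives, of which 5 moved out of the range given by opposite interval bounds. RBMS1 had a log2 ratio of −1.73 with 5 FPKM added. EGFR had −0.63 and TGFA −0.69, whether reference transcripts alone or the dominant one alone were taken, because the assembled transcript of the knockdown library is then left out. With the dominant transcript only, 1 member was at least 2-fold higher, NRG1, whose dominant transcript is listed in the knockdown library only. The sign of BTC also turned with overlapping assembled transcripts added (−0.10), while NRG1 had −0.31 with reference transcripts only and turned sign with an equal upper quartile (0.01) and with fragments on its listed exons added (0.24), the latter chosen after seeing the data, as were the alternatives for the ligand sum and for the combined lists.

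The share of all genes at least 2-fold higher and lower was 1.11% and 1.19% with 5 FPKM added, 5.31% and 4.87% with reference transcripts only, 7.31% and 7.16% with dominant transcripts, and 4.83% and 4.89% in TPM, where 13711 genes pass. It was 0.915% and 0.858% with no filter, and 1.55% and 1.57% among genes above 0 in both libraries. At a mean of at least 5 FPKM, 1.93% were higher. With reference transcripts only, genes past 2-fold were 2 higher among sheddases and partners, 2 higher and 1 lower among adaptors, 3 higher and 1 lower among negative regulators, and 3 higher and 1 lower among early genes. The cause was not tested.

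Interval comparisons under other settings were chosen after seeing the data. With an equal median ratio or TPM, 1 member was higher with intervals apart, since AREG then overlaps, beside 24.9% and 24.7% of all genes apart in either direction. With reference transcripts only, TGFA joins those apart and lower, which makes 4, but the share of all genes apart also rises from 24.7% to 33.5%. Alternatives for named list genes were also chosen after seeing the data, while those for the medians of the lists were planned. Of 67 values for these genes and medians together, 9 moved.

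No paired analysis was possible, since each group has 1 library. The intervals cover uncertainty within a library and not variation between cultures. Depth in reads is unknown. Assembled transcripts are named separately in each library, so differences between their lists cannot be told apart from differences in assembly. Transcript levels say nothing of protein, of shedding or of receptor activity. The hairpin and any further hairpin are not given in the labels, so effects of RBMS1 loss and of the hairpin itself cannot be told apart.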
